A study of Mus musculus with 6 samples.

Results

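Toll-like receptors and the LPS cofactors were measured in liver of 6 mice, as 10 of the 22180 genes that could be named on the arrays. The 10 genes are the receptors Tlr1, Tlr2, Tlr3, Tlr4, Tlr5, Tlr7, Tlr8 and Tlr9 and the cofactors Lbp and Ly96. They were grouped by their function, with earlier results of these data known. Each was read by 1 probe set, and all 10 are described here. The ErbB4-/- group held 3 mice that lack the receptor tyrosine kinase ErbB4 in the body and carry a transgene that supplies it in the heart, since full mutants die as embryos, and this line was backcrossed to C57BL/6J for more than 15 generations. The control group held 3 wild-type C57BL/6J mice. Every mouse of both groups had received 1 dose of DEN, in this field the liver carcinogen diethylnitrosamine, on postnatal day 14, so no untreated liver enters the comparison. The treatment protocol gives 32 weeks to dissection for all mice, but the treatment characteristic gives 35, 36 and 37 weeks for ErbB4-/- replicates 1 to 3 and 32, 33 and 34 weeks for control replicates 1 to 3. If the characteristic holds, age and genotype run together. Loss of ErbB4 cannot be told apart from the heart transgene or from other differences of the line. Erbb4, the targeted gene, had log2 signals of 4.75, 5.36 and 5.61 in ErbB4-/- livers and 5.42, 5.73 and 5.42 in control livers. The groups overlapped, and which part of the transcript its probe set reads was not examined, so it gives no check of the labels.

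Toll-like receptors are membrane proteins that recognise parts of microbes. Tlr1 and Tlr2 sense bacterial lipoproteins at the cell surface, Tlr4 senses lipopolysaccharide (LPS) of Gram-negative bacteria and Tlr5 senses flagellin, while Tlr3, Tlr7, Tlr8 and Tlr9 lie in endosomes and sense nucleic acids. LPS is picked up by the plasma protein Lbp, which hepatocytes secrete, passed to Cd14 and then to the complex of Tlr4 with Ly96, also called MD-2. Most receptors signal through the adaptor Myd88, and Tlr3 through Ticam1. Liver meets microbial products that reach it from the gut through the portal vein, and its Kupffer cells, the resident macrophages, carry much of the sensing.

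None of the 10 genes passed the test between ErbB4-/- and control liver (limma, adjusted p under 0.05 over all genes), where 0.00451% of all genes, a single one, passed. At an unadjusted p under 0.05 there were 2 of the 10, Tlr5 and Tlr2, against 5.72% of all genes. These were also the 2 genes whose groups did not overlap. Tlr5 had higher values in all 3 ErbB4-/- livers, as had 4.52% of all genes, and Tlr2 had lower values in all 3, as had 3.81% of all genes, which makes 8.33% in either direction. The differences, as ErbB4-/- minus control on the log2 scale, ran from -0.61 for Lbp to 0.37 for Tlr5. Their median was -0.20, against 0.01 over all genes, and 7 of the 10 were below 0, against 45.3% of all genes. The median moved with single arrays and with the week, as the closing section gives.

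**Figure D1:**
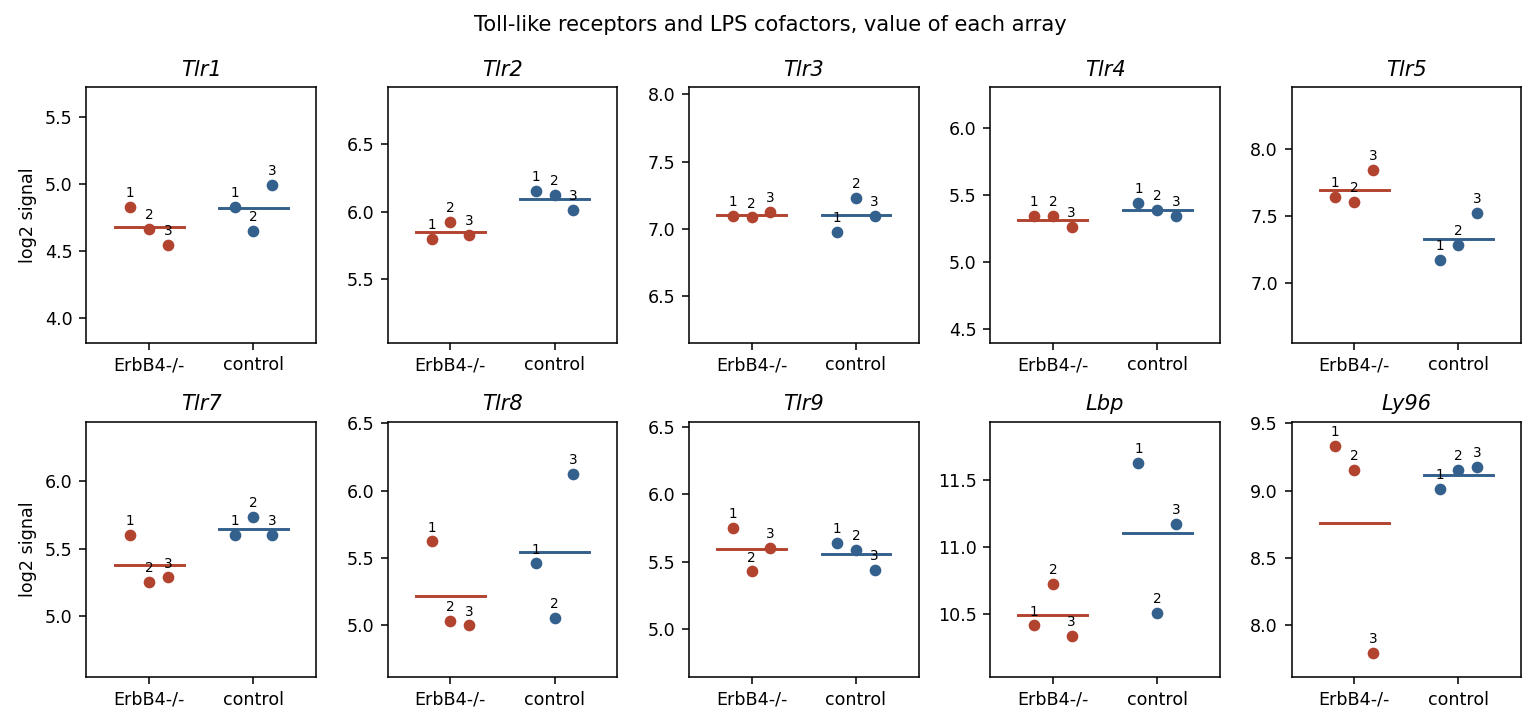
Log2 signal (vertical axis) of each of the 10 genes in the 3 ErbB4-/- livers (red, left) and the 3 control livers (blue, right), with replicate numbers beside the points and bars at the group means. Every panel spans the same range of log2 units, so the spread can be compared between panels but the level cannot. Points of the groups do not overlap for Tlr2 and Tlr5, and ErbB4-/- replicate 3 of Ly96 sits at 7.79, far below its other 5 arrays.

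The upstream sequences of Tlr2 and Tlr5 are shown because these were the 2 genes without overlap between the groups, a choice made after their values were seen. RefSeq (build GRCm38.p6) gave 7 promoter windows for 6 of the 10 genes, without Tlr4, Tlr7, Lbp and Ly96. The 250 bases before the annotated start are printed 5′ to 3′ on the gene's strand. Capitals mark matches to a relaxed kappaB-type motif, GGNNNTTCC, which NF-kappaB proteins can bind, and to the GC box, GGGCGG, both searched on both strands.
Tlr2, chr3:83841609-83841858, minus strand: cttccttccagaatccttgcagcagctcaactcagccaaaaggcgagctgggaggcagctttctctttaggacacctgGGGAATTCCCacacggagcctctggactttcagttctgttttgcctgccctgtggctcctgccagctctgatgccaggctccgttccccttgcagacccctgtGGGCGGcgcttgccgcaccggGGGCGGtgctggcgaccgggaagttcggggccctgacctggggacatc
Tlr5, chr1:182954538-182954787, plus strand: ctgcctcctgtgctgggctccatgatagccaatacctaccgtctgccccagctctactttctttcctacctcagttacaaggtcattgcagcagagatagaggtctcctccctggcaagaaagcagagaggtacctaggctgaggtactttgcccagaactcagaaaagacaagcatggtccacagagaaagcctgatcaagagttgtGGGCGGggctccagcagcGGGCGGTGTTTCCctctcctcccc
The kappaB-type motif lay at position -172 of Tlr2 from the start site, with an overlapping match at -171 on the opposite strand, and at position -20 of Tlr5, where it overlaps the GC box at -24. It was found in 3 of the 7 windows, the remaining one being that of Tlr3, and in 15.7% of all 32851 promoter windows, each searched over the same 250 bases. The GC box was found in 2 of the 7 windows and in 32.7% of all windows. The other motifs were searched in the same way. GAGGAAGT, which the myeloid factor PU.1 can bind, was found in 1 of the 7, a window of Tlr1, and in 2.44% of all. TGANTCA, the AP-1 site, was found in 1 of the 7, that of Tlr9, and in 6.75% of all, and TATAAA, the TATA box, in 1 of the 7, that of Tlr8, and in 12.4% of all. Tlr2 and Tlr5 hold the same kinds of match and had differences of opposite sign, neither of which passed. Binding at these matches was not measured, and their part in the values was not tested.

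Among the surface receptors, Tlr2 measured 5.80, 5.92 and 5.83 in ErbB4-/- replicates 1 to 3 and 6.15, 6.13 and 6.01 in control replicates 1 to 3. All 3 ErbB4-/- values were below all 3 control values. The means were 5.85 ± 0.07 in ErbB4-/- and 6.10 ± 0.07 in control liver (SD, n = 3 each). The difference of -0.25 (limma standard error 0.06) did not pass at an adjusted p of 0.760, and its p ranked 227 among 22180. Its 95% interval ran from -0.41 to -0.09. Leaving out any 1 array gave differences between -0.29 and -0.22.

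Tlr1, which pairs with Tlr2 on the cell surface, measured 4.83, 4.66 and 4.54 in ErbB4-/- livers and 4.83, 4.65 and 4.99 in control livers. Its groups overlapped, with a difference of -0.14 (95% interval -0.44 to 0.15). Its mean of 4.75 over all arrays lies below the median gene level of 5.27, and a low value on these arrays can be background. Tlr6, the close paralogue of Tlr1 and its neighbour on chromosome 5, measured 4.04, 3.52 and 4.31 in ErbB4-/- livers and 4.51, 4.31 and 4.31 in control livers. The groups of Tlr6 overlapped as well, and how far the probes tell the paralogues apart was not examined.

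Tlr5 measured 7.64, 7.60 and 7.84 in ErbB4-/- replicates 1 to 3 and 7.17, 7.29 and 7.52 in control replicates 1 to 3. All 3 ErbB4-/- values were above all 3 control values, the nearest pair being ErbB4-/- replicate 2 and control replicate 3. The means were 7.70 ± 0.13 in ErbB4-/- and 7.33 ± 0.18 in control liver (SD, n = 3 each). The difference of 0.37, a 1.29-fold higher mean in ErbB4-/- liver, did not pass (limma standard error 0.11, adjusted p = 0.760), and its p ranked 479. Its 95% interval ran from 0.08 to 0.65. With the labelled week as a covariate the difference was -0.04 (limma standard error 0.15), in a fit that separates week from genotype poorly. Its nearest measured neighbours on chromosome 1, looked up after the values were seen, did not share the shift without overlap. Susd4, which encodes a sushi domain protein, had a difference of 0.36 with a 95% interval from -0.59 to 1.30, and Disp1, which encodes a transporter-like protein that releases Hedgehog, had -0.04 with an interval from -0.17 to 0.09.

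Tlr4, the receptor of the LPS complex, measured 5.34, 5.34 and 5.26 in ErbB4-/- livers and 5.44, 5.39 and 5.34 in control livers. It had the smallest spread of the 10 genes, with an SD of 0.06 over all 6 arrays. Its mean of 5.35 lies close to the median gene level of 5.27. Tlr7, Tlr8 and Tlr9 had similar means of 5.51, 5.38 and 5.57. Whether the small spread of Tlr4 is steady expression or signal near background was not tested. The difference of Tlr4 was -0.08 with a 95% interval from -0.21 to 0.06 (limma, adjusted p = 0.760). The groups touched, because ErbB4-/- replicates 1 and 2 and control replicate 3 have exactly the same value.

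Ly96, the LPS-binding partner of Tlr4, measured 9.33, 9.16 and 7.79 in ErbB4-/- replicates 1 to 3 and 9.01, 9.16 and 9.18 in control replicates 1 to 3. The third ErbB4-/- array was low and the other ErbB4-/- arrays lay within or above the control range. The means were 8.76 ± 0.84 in ErbB4-/- and 9.12 ± 0.09 in control liver (SD, n = 3 each), and the difference was -0.36 (limma standard error 0.42, adjusted p = 0.809). Without ErbB4-/- replicate 3 the difference was 0.13 (limma, adjusted p = 0.771). That array also stood apart on the first principal component of all genes, at 33.35, against 5.44 for the next ErbB4-/- array and -6.96 to -21.46 for the control arrays. By the smallest root mean square difference between profiles centred on their own mean, taken over 6 arrays and among the 11081 genes whose mean reached the median, the genes most like Ly96 were Id3 at 0.11, an inhibitor of helix-loop-helix transcription factors, and Dhrs9 at 0.12, a short-chain dehydrogenase. On ErbB4-/- replicate 3 Id3 was at 6.60 and Dhrs9 at 5.38, and their other 5 values lay between 8.01 and 8.19 and between 6.81 and 7.14.

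Lbp, the plasma carrier of LPS, measured 10.42, 10.73 and 10.34 in ErbB4-/- replicates 1 to 3 and 11.63, 10.51 and 11.17 in control replicates 1 to 3. Control replicates 1 and 3 were above every ErbB4-/- array, but control replicate 2 lay among them. The means were 10.49 ± 0.21 in ErbB4-/- and 11.10 ± 0.56 in control liver (SD, n = 3 each). The difference of -0.61, the farthest from 0 among the 10 genes, did not pass (limma standard error 0.29, adjusted p = 0.760). Its 95% interval ran from -1.34 to 0.12, and leaving out 1 array gave -0.35 without control replicate 1 and -0.90 without control replicate 2. With the labelled week as a covariate the difference was -0.21 (limma standard error 0.64).

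Other genes that hepatocytes induce in inflammation were set beside Lbp. The mean of 18 acute-phase genes, a list that also holds Cd14, was 11.42, 11.43 and 11.57 in ErbB4-/- replicates 1 to 3 and 12.34, 11.52 and 12.00 in control replicates 1 to 3. None of the 18 passed, and 7 had lower values without overlap and none higher ones, beside 3.81% and 4.52% of all genes. The median difference of the 18 was -0.30. The serum amyloid gene Saa2, which did not pass, measured 9.07, 8.49 and 9.91 in ErbB4-/- livers and 12.12, 8.61 and 10.81 in control livers. The C-reactive protein gene Crp measured 11.51, 11.66 and 11.08 in ErbB4-/- livers and 12.30, 12.12 and 12.18 in control livers, where control replicate 2 was close to the other control arrays. Steap4, a metalloreductase, had a difference of -1.05 (adjusted p = 0.760). Hepatocyte markers had a list mean between 13.26 and 13.30 on ErbB4-/- arrays and between 13.29 and 13.39 on control arrays. Of 10 measured, 8 had lower means in ErbB4-/- liver, 1 of them without overlap. This was the transcription factor gene Hnf4a, at -0.30 (limma, adjusted p = 0.760). Alb, the albumin gene, measured 14.32 ± 0.02 in ErbB4-/- and 14.35 ± 0.02 in control liver. Alb lay at or near the highest signal of each array, and whether so high a signal can still show a change was not tested. Control replicate 1 also differed from all others in several sex-biased liver genes, though not in all of them. The male-type cytochrome gene Cyp4a12a was at 4.09 there, and its other 5 values lay between 8.43 and 9.50. The female-type gene Cyp2b9 was at 12.59 there, and its other 5 values lay between 7.84 and 8.46. Hsd3b5, Elovl3, Mup20 and Cyp2d9 had their lowest value there as well, and Cyp2b13 its highest. Hsd3b5 was at 2.52 there, against 8.70 to 9.88 on the other arrays, and Cyp2b13 at 10.91, against 5.89 to 6.46. Cyp2a4, also female-type, was at 9.45 there, within the range of its other values, 8.76 to 9.54. Sult2a1 was at 2.56 there, close below its other values, 2.61 to 2.98. The sex of the mice is not among the sample details used here. The part of that array's state in the Lbp value was not tested beyond the value without it.

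**Figure D2:**
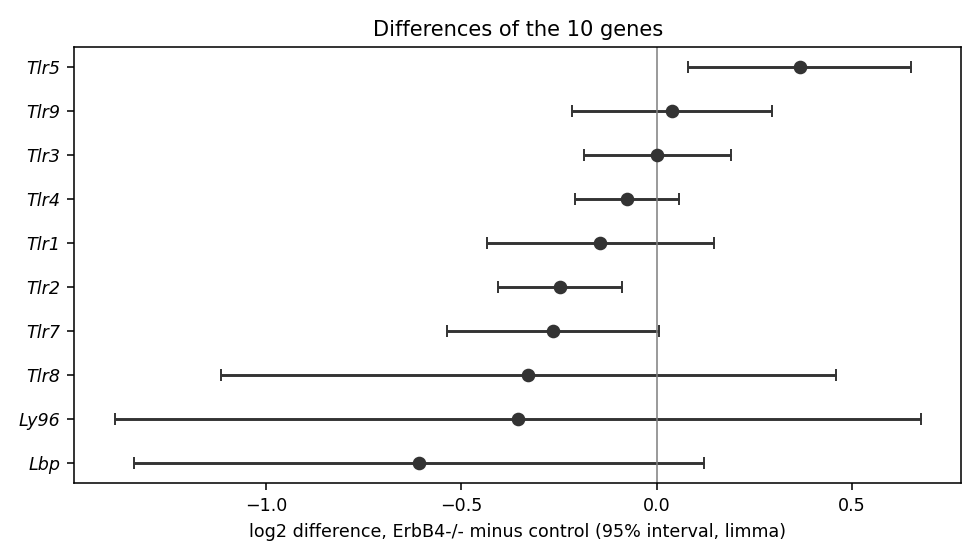
Log2 difference, ErbB4-/- minus control, of each of the 10 genes with its 95% interval from limma (horizontal axis), ordered from Tlr5 at the top to Lbp at the bottom. Intervals of Tlr5 and Tlr2 leave out 0 before adjustment for the number of genes, and those of Lbp, Ly96 and Tlr8 are the widest.

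The order of the differences was Tlr5, Tlr9, Tlr3, Tlr4, Tlr1, Tlr2, Tlr7, Tlr8, Ly96 and Lbp. Neighbours in this order have overlapping intervals throughout, and Lbp at the low end and Tlr5 at the high end have intervals that overlap only between 0.08 and 0.12. The interval of Tlr5 lies wholly above those of Tlr4, Tlr7 and Tlr2, whose upper ends are 0.06, 0.01 and -0.09. No test of the difference between genes was made.

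Among the endosomal receptors, Tlr3, the receptor of double-stranded RNA, measured 7.10, 7.08 and 7.13 in ErbB4-/- livers and 6.98, 7.23 and 7.10 in control livers. The ErbB4-/- values all lay within the control range. Its difference of 0.00 had a 95% interval from -0.19 to 0.19. Tlr9, the receptor of unmethylated CpG DNA, measured 5.75, 5.43 and 5.60 in ErbB4-/- livers and 5.64, 5.59 and 5.44 in control livers, with a difference of 0.04 and an interval from -0.22 to 0.30. All 3 control values of Tlr9 lay within the range of the ErbB4-/- values.

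Tlr7 and Tlr8, sensors of single-stranded RNA, are neighbours on the X chromosome. Tlr7 measured 5.60, 5.25 and 5.28 in ErbB4-/- livers and 5.60, 5.73 and 5.60 in control livers. ErbB4-/- replicates 2 and 3 were below all control arrays, and ErbB4-/- replicate 1 equalled control replicates 1 and 3. The difference was -0.27 (limma standard error 0.11, adjusted p = 0.760), with a 95% interval from -0.54 to 0.01. Without ErbB4-/- replicate 1 it was -0.38. Tlr8 measured 5.62, 5.03 and 4.997 in ErbB4-/- livers and 5.46, 5.06 and 6.12 in control livers. Its difference of -0.33 rested on control replicate 3, since it was -0.04 without that array, and its interval ran from -1.12 to 0.46. Tmsb4x, which encodes the actin-binding peptide thymosin beta 4 and lies on the other side of Tlr8, had a difference of -0.59 (adjusted p = 0.760).

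The genes most like the other members were found by the same measure. For Tlr2 they were Irf2bpl at 0.03 and Megf9 at 0.04, for Tlr5 Letm2 at 0.05 and Gch1 at 0.06, and for Tlr7 Tmem65 at 0.03 and Tgfb1 at 0.04. For Tlr1 they were Wwtr1 at 0.03 and Herpud1 at 0.04, and for Tlr8 Rbm8a at 0.10 and Slc7a5 at 0.17. For Lbp they were Pirb at 0.11, an inhibitory receptor of myeloid cells, and Tlr13 at 0.12, a sensor of bacterial ribosomal RNA in mice. Tlr3, Tlr4 and Tlr9 varied by less than the median gene, whose SD over 6 arrays was 0.14, and no like gene is named for them.

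Several of the 10 genes had exactly equal values on different arrays. Tlr1, Tlr3 and Ly96 had 1 value on 2 arrays, and Tlr4 and Tlr7 had 1 value on 3 arrays. In all genes, 57.5% had 1 value on at least 2 arrays and 30.9% on at least 3. For each of these 5 members the equal values join at least 1 ErbB4-/- and 1 control array. The processing step behind them was not tested.

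The chain that hands LPS to Tlr4 and Ly96 was examined next, from a list of genes for LPS binding and handling. None of its 10 genes passed, and 5 had a p under 0.05, all 5 lower, beside 5.72% of all genes in either direction. The same 5 had lower values without overlap, beside 3.81% of all genes. Cd14, the co-receptor that receives LPS from Lbp, measured 5.61, 5.83 and 5.37 in ErbB4-/- livers and 6.98, 6.24 and 6.53 in control livers. Every ErbB4-/- value was below every control value, and the difference was -0.98 (limma standard error 0.22, adjusted p = 0.760). Aoah, the enzyme that deacylates and so inactivates LPS, had a difference of -1.10. Itgb2, the integrin chain CD18, had -0.76, with 6.78, 6.65 and 6.35 in ErbB4-/- livers and 7.49, 7.18 and 7.42 in control livers. The other 2 were the scavenger receptor gene Msr1 and the integrin gene Itgam. Bpi, an LPS-binding protein related to Lbp and its neighbour on chromosome 2, measured 3.81 ± 0.00 in ErbB4-/- and 3.76 ± 0.08 in control liver. The median difference of the list was -0.58, and it was -0.40 with control replicate 1 and ErbB4-/- replicate 3 both left out and -0.31 with the labelled week as a covariate.

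Cd14, Itgb2, Itgam and Msr1 are also expressed by macrophages and other myeloid cells, and fewer cells of a type cannot be told apart in whole liver from less RNA per cell. The markers of Kupffer cells and macrophages had lower means in ErbB4-/- liver for all 15 measured, 12 of them without overlap, and none passed. Of all genes, 45.3% were lower and 3.81% lower without overlap, which also stands beside the neutrophil and monocyte counts below. The mean over the list lay between 7.36 and 8.28 on ErbB4-/- arrays and between 8.59 and 8.93 on control arrays. Adgre1, which encodes a surface receptor used to mark macrophages, measured 7.31, 7.12 and 6.66 in ErbB4-/- livers and 7.53, 7.85 and 7.90 in control livers. Clec4f, a lectin of Kupffer cells, measured 9.13 ± 0.34 in ErbB4-/- and 9.54 ± 0.05 in control liver, and the scavenger receptor Cd163 had a difference of -1.35. Neutrophil markers were lower for all 10, with 8 without overlap, at means of 4.55 to 4.95 on ErbB4-/- and 5.28 to 7.31 on control arrays. Among them S100a8, a calgranulin, measured 5.44, 5.18 and 5.87 in ErbB4-/- livers and 9.42, 6.17 and 9.02 in control livers. Monocyte markers were lower for all 7, with 4 without overlap, at means of 6.05 to 6.22 on ErbB4-/- and 6.49 to 7.38 on control arrays. Itgam is among those 4 and is also on the list for LPS binding and handling. With the same 2 arrays left out, the median difference was -0.76 for the Kupffer cell and macrophage markers, against -0.74 with all arrays, and -1.53 for the neutrophil markers, against -2.07. When the week was added as a covariate, the medians were -0.52 for the Kupffer cell and macrophage markers, -1.75 for the neutrophil markers and -0.02 for the monocyte markers. The part of these cells in the values of Tlr2, Cd14 and the other sensors was not tested.

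**Figure D3:**
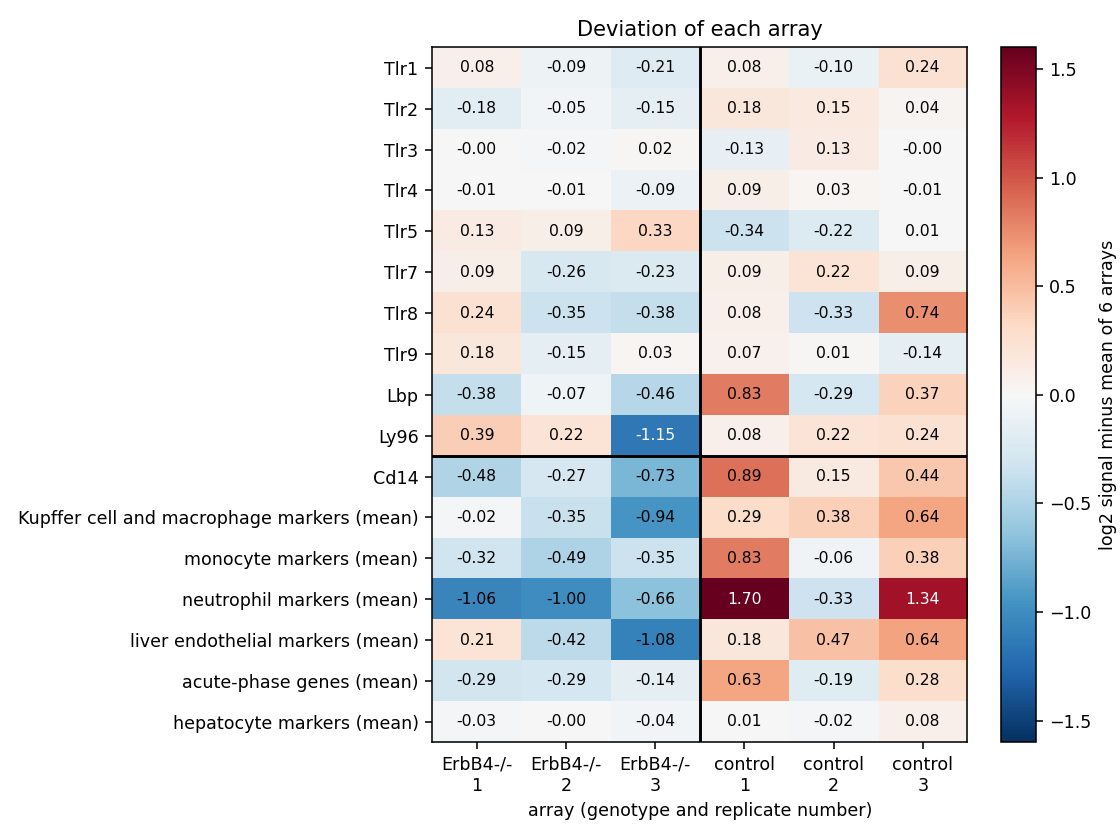
Deviation of each array (columns, ErbB4-/- left of the line and control right of it) from the gene's mean over 6 arrays, in log2 units, for the 10 genes, for Cd14 and for the means of 6 marker lists below them. Lbp is highest in control replicate 1, as are Cd14 and the monocyte, neutrophil and acute-phase means, and Ly96 is lowest in ErbB4-/- replicate 3, as are the Kupffer and endothelial means.

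Liver endothelium also carries Toll-like receptors, and its 12 markers all had lower means in ErbB4-/- liver, 3 without overlap. Of all genes, 3.81% were lower and 4.52% higher without overlap. The mean of the endothelial list lay between 6.97 and 8.27 on ErbB4-/- and between 8.23 and 8.69 on control arrays. Stab2, a hyaluronan receptor of sinusoidal endothelium, measured 8.90, 8.44 and 7.99 in ErbB4-/- livers and 9.10, 8.93 and 9.09 in control livers. The median difference of the endothelial markers was -0.84, and -0.11 when the week was added as a covariate. Markers of dendritic cells, whose plasmacytoid type is known for Tlr7 and Tlr9, had a median difference of -0.01 over 9 genes, with none without overlap. B and plasma cell markers had a median of -0.07 over 7 genes, 4 of them below the median level of all genes, and a median of -1.09 over the other 3. Of those, Jchain, the joining chain of antibodies, had a difference of -1.53 without overlap, and Ighm, their mu heavy chain, had -1.09 with overlap, and neither passed. T and NK cell markers had a median of -0.05 over 9 genes, with 1 higher and 2 lower without overlap. Stellate cell and fibroblast markers had -0.27 over 12 genes, with 4 lower without overlap, and 0.05 with the week as a covariate. Cholangiocyte markers had -0.01 over 5 genes. Markers of pancreas, fat, muscle and erythroid cells had 0.12 over 9 genes, with 2 higher and 1 lower without overlap. The higher ones were the muscle genes Acta1 and Myh1, each at 0.33, and neither passed. The mean of this list was low, 4.77 to 4.85 on ErbB4-/- and 4.65 to 4.72 on control arrays, though Acta1 had a mean of 6.10.

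The remaining receptors and the proteins that fold or move them gave mixed values. Of 10 genes none passed, and 3 had lower and 1 higher values without overlap, beside 3.81% and 4.52% of all genes. Ly86, the MD-1 partner of the receptor homologue Cd180, had a difference of -1.11, with 8.03, 7.15 and 6.94 in ErbB4-/- livers and 8.13, 8.47 and 8.84 in control livers. Unc93b1, which carries the nucleic acid receptors to endosomes, measured 8.29 ± 0.16 in ErbB4-/- and 8.61 ± 0.10 in control liver, a difference of -0.32 (limma, adjusted p = 0.760). Tlr13 measured 5.22, 5.56 and 5.28 in ErbB4-/- livers and 6.36, 5.61 and 6.03 in control livers. Its difference was -0.65, with control replicate 2 closest to the ErbB4-/- arrays, the order also seen for Lbp. Tlr12, a sensor of parasite profilin, was the gene with higher values without overlap, at 0.21.

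The adaptors and the proximal kinases carry the signal from the receptors. Of 7 adaptors none passed, none had a p under 0.05 and none was without overlap. Myd88 measured 7.48 ± 0.04 in ErbB4-/- and 7.37 ± 0.14 in control liver, a difference of 0.11 with a 95% interval from -0.10 to 0.31. Ticam1, the adaptor TRIF of Tlr3 and Tlr4, had a difference of 0.00 with an interval from -0.27 to 0.26, and Tirap, the adaptor that brings Myd88 to Tlr2 and Tlr4, had -0.17 with an interval from -0.56 to 0.21. Pik3ap1, which links the receptors to PI3-kinase, had -0.21, and Scimp, a transmembrane adaptor, had -0.15. Of 13 kinases and ligases measured none passed and none had a p under 0.05. Only 1, the kinase gene Irak2, was higher without overlap, at 0.06, as were 4.52% of all genes. The median difference of the 13 was 0.02. The IkappaB kinase genes Ikbke, Ikbkb and Ikbkg had differences of -0.18, 0.10 and 0.26. The difference between these lists and the sensors was not tested.

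Negative regulators restrain the signal, and transcription factors of the NF-kappaB and IRF families carry it to the genome. Of 13 negative regulators none passed and 5 had lower values without overlap, beside 3.81% of all genes. Among the 5 was Irak3, a kinase-like brake on Myd88 signalling found in macrophages, at -0.66. Nfkbia, the inhibitor of NF-kappaB that NF-kappaB itself induces, was also among them, at -0.26. Tnfaip3, the deubiquitinase A20, had -0.38 with overlapping groups. Of 9 transcription factors of the NF-kappaB and IRF families and their regulators none passed and 2 were lower without overlap. These were Rel, at -0.72, and Nfkbiz, a nuclear regulator induced by LPS, at -1.09, with 7.34, 6.93 and 6.58 in ErbB4-/- livers and 8.23, 7.82 and 8.06 in control livers. Irf8, a factor of macrophages and dendritic cells, had -0.28 with overlapping groups.

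Of 22 genes that Toll-like receptor signals are known to induce, none passed, 5 had a p under 0.05, all lower, and 5 had lower values without overlap. The shares of all genes were 5.72% at a p under 0.05 in either direction and 3.81% lower without overlap. Cxcl1, a chemokine for neutrophils, measured 8.68, 8.58 and 6.99 in ErbB4-/- livers and 10.32, 9.48 and 9.74 in control livers. Il1b, the gene of the cytokine interleukin 1 beta, had a difference of -1.38 and Vcam1, an adhesion molecule, -1.01 (limma, adjusted p = 0.760 for both). Their median difference was -0.21. Of 14 other innate sensors none passed and 3 were lower without overlap, the fungal lectin receptor genes Clec7a, at -0.71, and Clec4e, at -1.28, and the inflammatory protease gene Casp1, at -0.84.

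**Figure D4:**
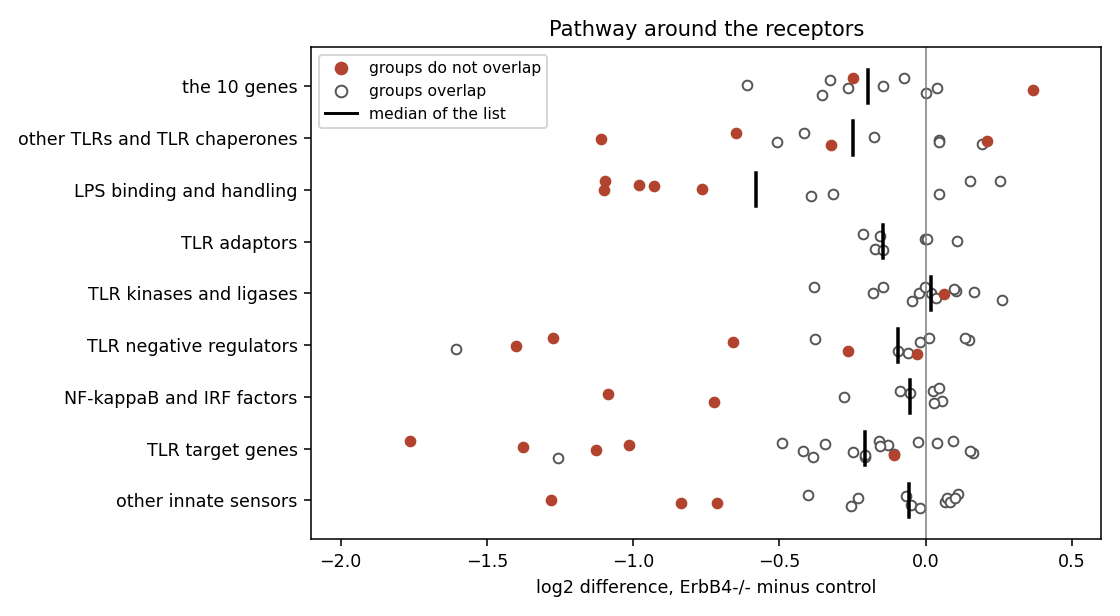
Log2 difference, ErbB4-/- minus control (horizontal axis), of each gene of the 10 and of 8 lists around them (rows), with filled points where the groups did not overlap and a bar at each list's median. Points without overlap lie left of 0 for LPS binding and handling, and the adaptors and kinases lie between -0.38 and 0.26.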

How the data were processed

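The authors deposited 1 table of log2 values, 1 per probe set and array. The log2 scale was read from the values, whose maximum was 14.4. Per the labels' protocols, total RNA was extracted with Trizol and biotin-labelled with Affymetrix whole-transcript kits. Background correction, normalization, summarisation and genome build are not given in the sources used here. Of 41345 probe sets, 23521 had 1 gene symbol in the platform annotation, 1814 had several and 16010 are unnamed here. The probe set with the highest mean stood for a gene, which left 22180 genes, and no filter on dim ones was applied.

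A two-sided limma model (version 3.58.1, R 4.3.3; lmFit, eBayes) with genotype alone was fitted across all genes, with Benjamini-Hochberg adjustment at 0.05. With 3 mice a group the smallest exact permutation p is 0.1, and that test was left out. The fit was tested on simulated data, which required recovery only of planted differences larger than those of the 10 genes. Recovery of differences of their size is not reported here. Gene lists, 21 beside the 10 genes, with 230 of 243 listed genes measured, are described by counts and medians. Cd14 and Itgam are counted in each list that holds them. Besides all 10 genes, the text names up to 3 genes of a list by the smallest p and a few fixed ones. Msr1, Itgam, Tlr12, Saa2, Irak2, the chromosome neighbours and the equal values were picked with these values in view. All 9 measured sex-biased liver genes are named, which was also decided with these values in view. The 10 genes and the lists were chosen with earlier results of these data known. Motifs were searched in RefSeq promoter windows of GRCm38.p6. Figures were drawn with matplotlib 3.10.9.

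The alternatives were quantile normalization again, median centring, a filter at the median level, the mean of a gene's probe sets, every row, weights for arrays, a trended robust prior, the replicate block, the week as a covariate, each array left out, control replicate 1 and ErbB4-/- replicate 3 left out together, and a threshold of 0.1. The design text calls the mice biological replicates.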

Additional observations from a re-analysis of the deposited data

How the results depend on the processing

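None of the 10 genes passed under any of the 17 alternatives, the replicate block included, with smallest adjusted p-values between 0.524 and 0.746 for the 10 genes. The single gene that passed over all genes was lost, leaving 0, with every row tested, with the replicate block, with the week as a covariate, without any 1 array (0 to 0), and with control replicate 1 and ErbB4-/- replicate 3 both left out. Same-numbered arrays did not deviate together (r of deviations across genes -0.10, 0.03 and -0.05 for numbers 1 to 3). These values rest on deviations from means of 3 arrays and cannot decide whether the numbers pair the mice.

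The median difference of the 10 genes was -0.0489 with the week as a covariate, -0.0733 without both arrays, and between -0.227 and -0.0621 with 1 array left out, so its size rests on ErbB4-/- replicate 3 and control replicate 3 (-0.0621 and -0.0792 without them). With 1 array left out, 2 to 4 of the 10 genes were without overlap, against 14.9% to 18.5% of all genes; the 4 were Tlr2, Tlr5, Tlr7 and Tlr8, without ErbB4-/- replicate 1, where the share of all genes was 18.5%. Tlr1, Tlr2, Tlr7, Tlr8 and Lbp kept the sign of their difference under all alternatives in which they were tested. Every row, the trended robust prior, the replicate block and the threshold of 0.1 cannot change a difference. For these genes, each with 1 probe set, the mean of probe sets and the filter at the median level cannot change it either. Ly96 turned to 0.676 with the week (limma standard error 0.782), to 0.0770 without both arrays and ranged from -0.642 to 0.128 with 1 array left out. With the week Tlr5 turned to -0.0449, Tlr4 to 0.0612 and Tlr3 to -0.111 (limma standard errors 0.152, 0.103 and 0.165). The labelled weeks of the groups do not overlap, so this fit separates week from genotype poorly. Its standard errors for these genes are larger than those of the main fit, and the turned signs lie within them. Tlr3 was also -0.00278 after centring, -0.0181 with array weights, -0.0730 without both arrays and between -0.0614 and 0.0662 with 1 array left out, and Tlr9 between -0.0384 and 0.123. The causes were not tested. Of 357 list medians under the alternatives, 50 moved by more than the spread between replicates and 25 turned sign, with the week among them the adaptors (0.124, against -0.146 as reported) and the sex-biased liver genes (-0.600, against 0.555). The 357 also count the alternatives that cannot change a difference, so these shares understate the movement under the others. Tlr1 lies below the median level and has no value under that filter.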
